A study of Homo sapiens with 6 samples.

Results

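The genes described here are 49 genes of the contractile cytoskeleton and of the SRF/MRTF and YAP/TEAD transcription pathways, listed by name for their known roles and taken from a table of 57819 genes. The rule uses no measured value, although the list was drawn up with earlier results of these data known. All 49 were found in the table, CTGF and CYR61 under these older symbols. RNA was measured in 6 libraries of IMR90 ER:Ras cells by polyA-selected sequencing with single reads of 50 bp. IMR90 cells are fibroblasts of human lung, kept as an established line. ER:Ras is a Ras oncoprotein fused to an estrogen receptor domain that 4-hydroxytamoxifen (4OHT) switches on, which drives the cells into senescence. Both groups carried ER:Ras and received 4OHT at 200 nM for 3 days, so neither holds proliferating or vehicle-treated cells. The control group of 3 libraries was transfected with a scrambled siRNA (siSCR). The knockdown group of 3 libraries was transfected with siRNA against sin-lncRNA, a long noncoding RNA. The study asked what sin-lncRNA does in senescent cells. All libraries come from a single cell line, and the labels do not say whether replicates were separate cultures, so p-values measure the spread between these libraries only.

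SRF is a transcription factor that binds the CArG box of muscle and cytoskeletal genes. Its cofactors MRTF-A and MRTF-B (MKL1 and MKL2 in the table) are held in the cytoplasm by monomeric actin and enter the nucleus when actin polymerises, and myocardin (MYOCD) is the related cofactor of smooth and cardiac muscle. YAP and TAZ (YAP1 and WWTR1) are coactivators without a DNA-binding domain of their own. They act through the TEAD factors, and the LATS kinases of the Hippo pathway phosphorylate them and keep them out of the nucleus. Both pathways respond to tension in actin fibres. In fibroblasts they take part in the change to myofibroblasts, contractile cells marked by smooth muscle actin. The table measures RNA, so neither the location nor the phosphorylation of these proteins was measured.

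Reads in genes numbered between 30271192 and 50913672 in the control libraries and between 22117324 and 27882280 in the knockdown libraries, so every knockdown library was the shallower. Levels are given in RPM, reads scaled to the size of the library. A gene with 0 reads could have had up to 3, which corresponds to 0.0596 to 0.134 RPM across the libraries, for counting error only. sin-lncRNA itself had 126, 142 and 206 reads in the controls and 11, 15 and 15 in the knockdowns, a log2 change of -2.86 (SE 0.18, adjusted p = 7.9e-07). All 11 fibroblast markers of a list of collagens, platelet-derived growth factor receptors and other stromal genes were above 1 RPM in every library. Of these, 6 rose (COL3A1, PDGFRA, THY1, LUM, FBN1 and FAP), 4 fell (COL1A1, COL1A2, PDGFRB and DCN) and S100A4 did not pass the test. Their summed level was between 12982.6 and 14252.6 RPM in controls and between 9601 and 10101.7 RPM in knockdowns, and most of it is COL1A1 (log2 change -0.88) and COL1A2 (-0.77). Of 8 vascular smooth muscle markers, 7 were above 1 RPM, with sums of 437 to 470 RPM in controls and 260 to 298 RPM in knockdowns. Most of that sum is ACTG2 (log2 change -0.85) and SMTN (-0.73), which fell, as did CNN1 and LMOD1. MYH11, SYNM and MYOCD did not pass the test, and DES was not tested. ACTG2, LMOD1, MYOCD, DES and CNN1 are among the genes described here. The summed levels of 8 skeletal and cardiac muscle markers (0.342 to 1.03 RPM over all libraries), of 8 epithelial markers (0.314 to 0.570 RPM) and of 6 leukocyte markers (0.266 to 0.784 RPM) were low, with MYOD1, MYOG, MYH7, TNNT3, KRT5, SCGB1A1 and NKX2-1 at 0. Of the endothelial markers, 5 were found, and their sums were 7.06 to 7.96 RPM in controls and 7.98 to 8.84 RPM in knockdowns. In bulk RNA, fewer cells of a type and less RNA per cell cannot be told apart, and the part of these marker changes in the results was not tested.

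The cytoskeletal genes and the regulators differed in direction. A gene was called when the adjusted p of limma, taken over 19048 genes with a mean of at least 10 normalized reads (reads scaled to the mean library size), was under 0.05. Of the 49 genes, 48 reached that mean, and 37 were called, 11 higher and 26 lower in the knockdown. Over all genes tested, 41.0% were called, 17.5% higher and 23.5% lower. Most of these 48 genes are abundant, and among the 5959 genes with a mean of at least 1000 reads the shares were 57.6%, 24.2% and 33.4%, respectively. The groups did not overlap for 40 of the 48, against 51.1% of all genes tested. The knockdown libraries lay below the controls for 27 of them and above for 13, against 28.3% and 22.8% of all genes. Among the structural proteins, 23 of 29 fell and 2 rose, with a median log2 change of -0.23. Among the regulators and signal targets, 9 of 19 rose and 3 fell, with a median of 0.14, beside -0.04 over all genes tested. Most of these rises were among the LATS kinases and proteins that bind LATS or YAP (4 of 5) and the target genes (3 of 4). The transcription factors were mixed: SRF and its cofactors had 1 rise and 1 fall, and YAP, TAZ and the TEAD factors 1 rise and 2 falls. Of the 37 calls, 24 held under each of the 20 alternative settings that keep the call rule. When reads of each library were drawn down to the depth of the shallowest, 38 were called.

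**Figure D1:**
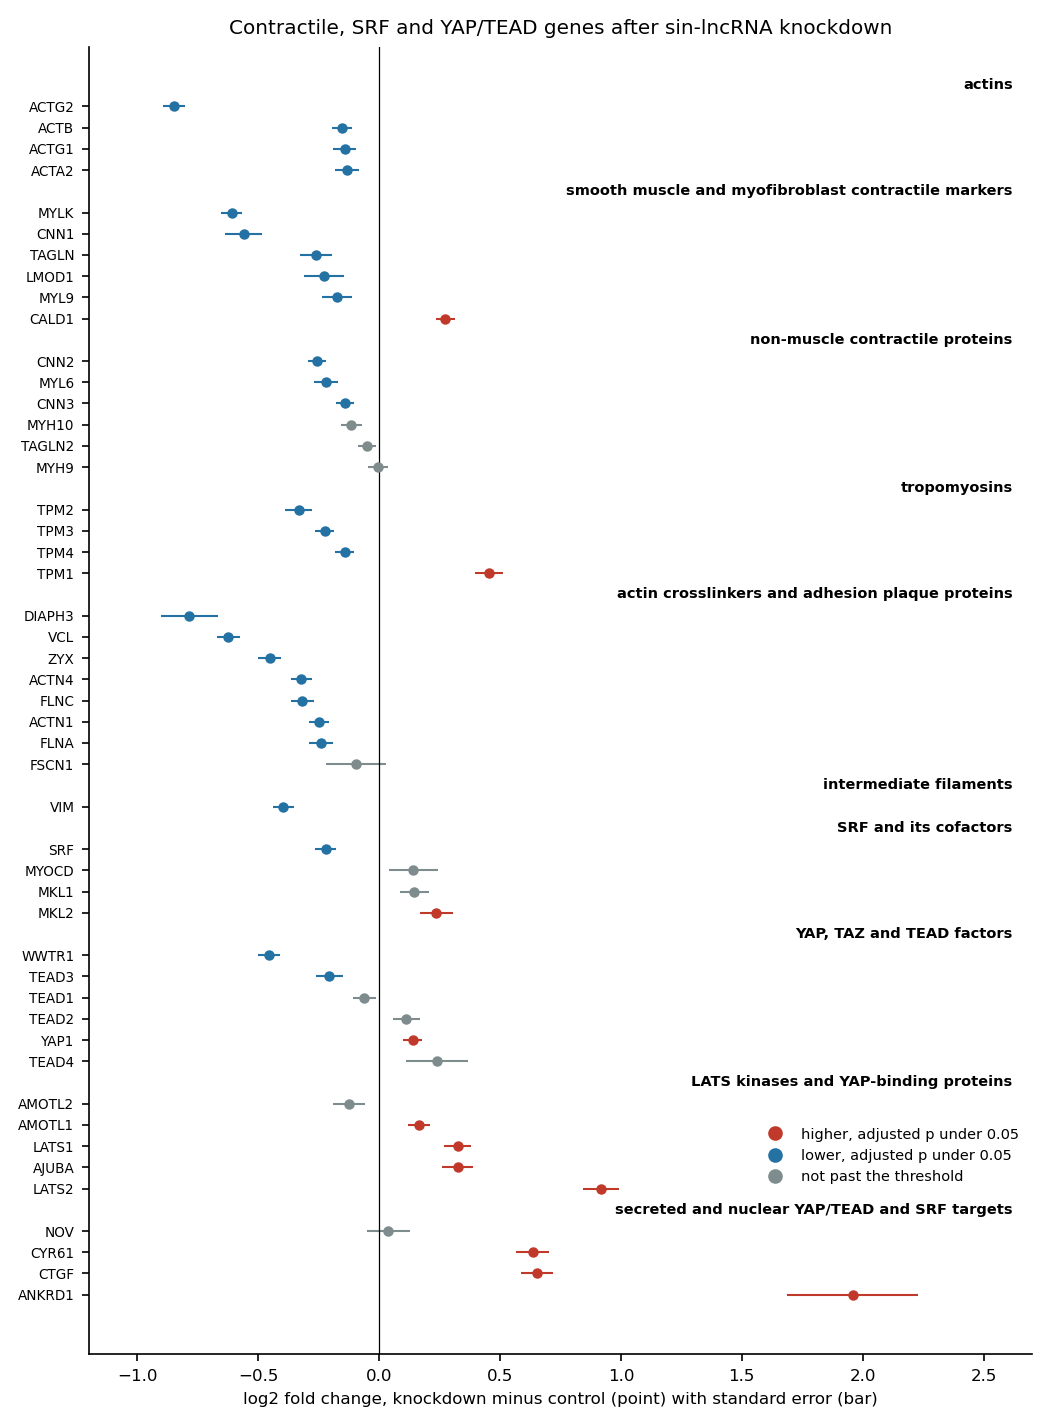
Log2 change (knockdown minus control, with its standard error) of the 48 genes tested, grouped by role. Colour shows whether a gene was called higher or called lower at an adjusted p under 0.05, or did not pass. The structural groups lie mostly left of 0, while CTGF (0.65), CYR61 (0.63), LATS2 (0.92) and ANKRD1 (1.96) lie to the right.

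The promoters of a few of these genes show the sequences the pathways read. RefSeq promoter windows (GRCh38.p14, the 250 bases before each annotated start) were found for 39 of the 49 genes, in 66 windows. They were searched on both strands for the CArG box, taken as 10 letters that read CC, then only A or T, then GG. They were also searched for the TEAD motif GGAATG or its reverse complement CATTCC. The 5 windows below were picked as those with repeated motifs, or, for MYLK, for the size of its change. Each is given 5′ to 3′ on the strand of its gene, and capitals mark a CArG box in the first 3 and a TEAD motif in the last 2. They lie at chr2:73892758-73893007 (plus strand) for ACTG2, chr3:123620549-123620798 (minus strand) for MYLK, chr6:43171019-43171268 (plus strand) for SRF, chr6:131951373-131951622 (minus strand) for CTGF and chr10:90921088-90921337 (minus strand) for ANKRD1.
ACTG2: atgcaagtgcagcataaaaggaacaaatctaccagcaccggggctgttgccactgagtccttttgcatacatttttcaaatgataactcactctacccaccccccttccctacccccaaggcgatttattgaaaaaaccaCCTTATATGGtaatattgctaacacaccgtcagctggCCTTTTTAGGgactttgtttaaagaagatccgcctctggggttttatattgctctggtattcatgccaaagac
MYLK: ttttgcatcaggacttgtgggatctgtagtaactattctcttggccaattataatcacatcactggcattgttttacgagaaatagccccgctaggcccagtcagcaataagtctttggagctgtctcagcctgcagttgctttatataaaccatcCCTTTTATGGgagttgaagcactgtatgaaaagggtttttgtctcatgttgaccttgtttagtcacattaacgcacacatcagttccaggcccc
SRF: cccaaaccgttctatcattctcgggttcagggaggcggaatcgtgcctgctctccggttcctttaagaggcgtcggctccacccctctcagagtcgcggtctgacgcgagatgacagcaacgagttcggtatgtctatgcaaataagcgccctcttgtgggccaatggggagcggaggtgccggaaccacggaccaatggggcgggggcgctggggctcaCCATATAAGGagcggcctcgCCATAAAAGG
CTGF: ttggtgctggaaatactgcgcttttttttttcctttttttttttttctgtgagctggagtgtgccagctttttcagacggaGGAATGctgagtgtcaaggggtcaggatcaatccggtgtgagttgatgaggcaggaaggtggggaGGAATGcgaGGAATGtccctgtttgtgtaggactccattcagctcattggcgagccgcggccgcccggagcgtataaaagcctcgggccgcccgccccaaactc
ANKRD1: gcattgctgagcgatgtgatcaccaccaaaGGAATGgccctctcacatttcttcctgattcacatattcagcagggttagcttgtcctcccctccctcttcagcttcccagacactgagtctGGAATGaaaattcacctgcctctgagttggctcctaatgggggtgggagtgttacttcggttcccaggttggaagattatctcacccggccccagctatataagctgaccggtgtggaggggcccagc
The CArG boxes of ACTG2 begin 110 and 73 bases before the start, those of SRF 30 and 10 bases before it, and that of MYLK 94 bases before it. The TEAD motifs of CTGF begin 169, 104 and 95 bases before the start, and those of ANKRD1 220 and 128 bases before it.

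A CArG box stood in 8 of the 66 windows (12.1%), against 407 of 35116 windows of all genes (1.16%). The genes that hold such a full match were ACTG1, ACTG2, ACTN1, CNN2, FLNA, MYLK, SRF and TPM4, and each was called lower in the knockdown. Near matches were not counted. A window of ACTA2 holds ccctatatgg and ccttgtttgg, which have a C or a G inside the run of A and T. No full match to the CArG box stood in the 18 windows of genes called higher or in the 12 windows of genes tested and not called. Of the 39 genes with a window, 23 were called lower, 10 higher and 6 not called. The 10 genes without a window could not be searched. Among them CYR61 was called higher, and ACTB, TAGLN and MYL9 were called lower. The calls of ACTG1, TPM4 and SRF were lost in at least 1 alternative setting. The TEAD motif stood in 17 of the 66 windows (25.8%), against 11.9% of all windows. It was found in 7 of 18 windows of genes called higher (38.9%), 7 of 36 of genes called lower (19.4%) and 3 of 12 of those not called. Many of the 49 genes are listed because they are known targets of SRF or TEAD, so these shares are not independent of how the genes were chosen. A match is a description of the letters and not a bound site, and distal enhancers lie outside these windows.

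**Figure D2:**
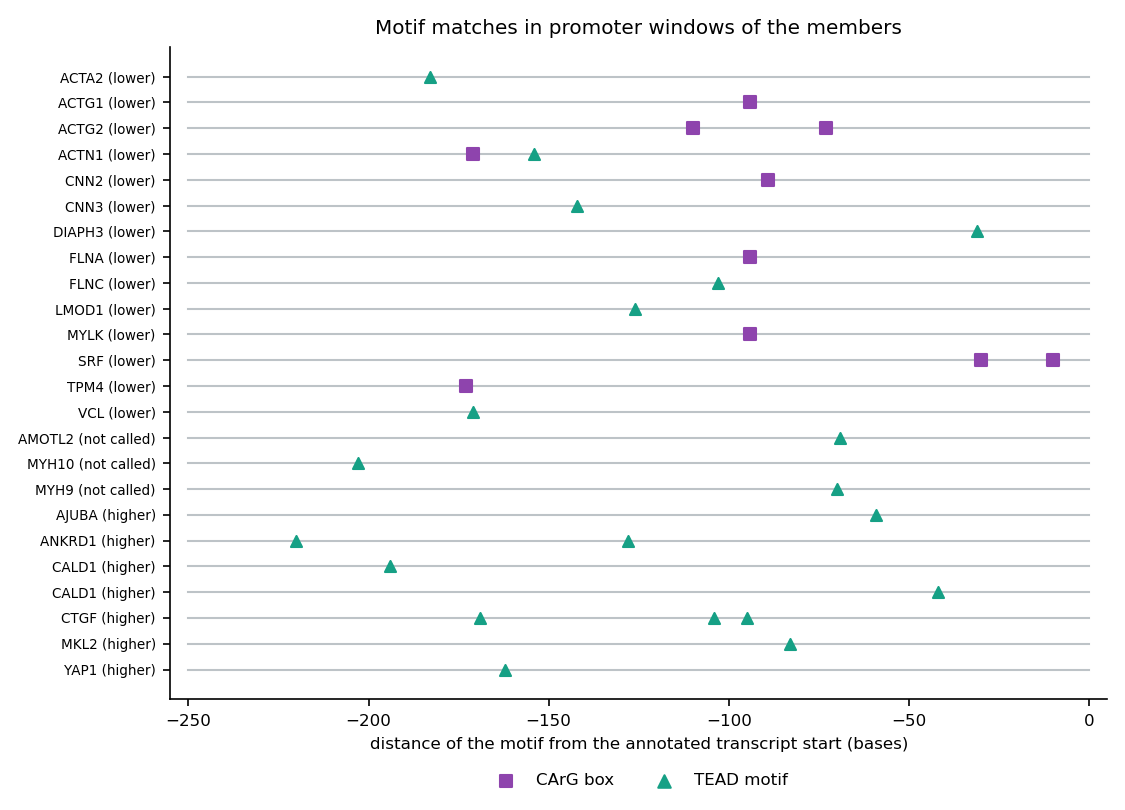
Positions of CArG boxes and TEAD motifs in the promoter windows that hold one, as bases before the annotated start. Each window holding a CArG box belongs to a gene called lower, and CTGF has 3 TEAD motifs.

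The actin genes fell, and the enteric smooth muscle actin ACTG2 fell furthest. ACTG2 (ENSG00000163017.9, chr2:74119441-74146992, hg19) stood at 206, 215 and 218 RPM in the controls and 117, 124 and 114 RPM in the knockdowns. The groups did not overlap, and the mean went from 213 ± 5.91 to 119 ± 5.14 RPM (SD, n = 3), or 55.6% of control (log2 change -0.85, SE 0.05, adjusted p = 3.9e-07). ACTA2, the alpha smooth muscle actin used as the standard myofibroblast marker, stood at 95.6, 93.5 and 93.0 RPM in the controls and 82.4, 90.6 and 84.5 RPM in the knockdowns. The mean fell to 91.3% of control (log2 change -0.13, SE 0.05, adjusted p = 0.047), and the call held in 8 of the 20 alternative settings. The cytoplasmic actins ACTB and ACTG1, which form the bulk of actin in non-muscle cells, fell to 90.0% and 90.7% of control (adjusted p = 0.013 and 0.034). Those calls held in 16 and 9 of the 20 alternative settings, respectively. With a trend on GC content and length removed, a setting chosen after seeing the data, the adjusted p was 0.29 for ACTA2, 0.31 for ACTB and 0.6 for ACTG1. Per kilobase of transcript, ACTG2 went from a level of 103 to 57.4 and ACTA2 from 69.7 to 63.6 RPKM. By this measure ACTG2 was the more abundant smooth muscle actin in controls. The strand setting of the counting is not given, and ACTA2 shares 30.1% of its 50-base stretches with ACTA2-AS1, while ACTG2 shares 0.0993%. Whether this shared sequence affects the order of these genes was not tested.

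Within the reads of the 4 actins, ACTG2 took 2.25%, 2.36% and 2.30% in the controls and 1.47%, 1.47% and 1.36% in the knockdowns. Its share thus went from 2.30% ± 0.0519 to 1.43% ± 0.0655 (SD, n = 3), without overlap, and the two-sided exact permutation test reached p = 0.1, its minimum with 3 libraries a group. The share of ACTA2 was 1.02% ± 0.0297 in controls and 1.04% ± 0.0351 in knockdowns, and the groups overlapped (exact permutation p = 0.5). ACTB held 50.8% and 51.0% and ACTG1 45.9% and 46.5%, also with overlap. Only ACTG2 of the 4 changed its place among the actins by more than the libraries' spread.

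Of 6 smooth muscle and myofibroblast contractile markers, 5 fell and 1 rose. MYLK (ENSG00000065534.14, chr3:123328896-123603178, hg19), the myosin light chain kinase that starts contraction, stood at 424, 464 and 437 RPM in the controls and 294, 284 and 289 RPM in the knockdowns. All knockdowns lay below all controls, at 65.5% of control (log2 change -0.61, SE 0.04, adjusted p = 2.2e-06). CNN1, calponin of differentiated smooth muscle, stood at 16.6, 16.1 and 16.9 RPM and then at 10.2, 11.6 and 11.9 RPM (log2 change -0.56, SE 0.08, adjusted p = 0.00022). TAGLN, the actin-binding protein SM22, stood at 128, 144 and 147 RPM in the controls and 106, 122 and 121 RPM in the knockdowns. It fell to 83.4% of control (log2 change -0.26, SE 0.07, adjusted p = 0.0096), without overlap but with a spread close to the gap. Its adjusted p was 0.051 without control replicate 3 and 0.065 with eBayes without trend, the only alternatives that ended the call. PCSK7, on the opposite strand, overlaps TAGLN and had a mean of 2766 reads. TAGLN shares 18.6% of its 50-base stretches with PCSK7, and the strand setting of the counting is not given. Smaller falls were called for MYL9, a regulatory myosin light chain (log2 change -0.17, adjusted p = 0.041), and for LMOD1, a smooth muscle leiomodin that nucleates actin (-0.23, adjusted p = 0.045), and they held in 11 and 7 of the 20 alternative settings. CALD1, the actin- and myosin-binding caldesmon, went the other way, with 614, 640.0 and 634 RPM in the controls and 769, 773 and 739.8 RPM in the knockdowns. It rose to 121% of control (log2 change 0.27, SE 0.04, adjusted p = 0.00028), with every knockdown above every control.

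Of 6 non-muscle contractile proteins, 3 fell and none rose. CNN2, a calponin of non-muscle cells, stood at 289, 285 and 284 RPM in the controls and 236, 239 and 243 RPM in the knockdowns (log2 change -0.26, SE 0.04, adjusted p = 0.00032). MYL6, the essential light chain of non-muscle myosin, fell from 785 ± 48.4 to 673 ± 20.4 RPM (SD, n = 3; adjusted p = 0.005). CNN3 fell by 0.14 on the log2 scale (adjusted p = 0.013). The heavy chain MYH9 was at 1883 ± 11.7 and 1878 ± 61.7 RPM (adjusted p = 0.94), MYH10 at 106 ± 1.53 and 97.8 ± 3.15 RPM (adjusted p = 0.057), and TAGLN2 at 372 ± 4.54 and 359 ± 7.41 RPM (adjusted p = 0.33). These 3 did not pass the test. MYH10 was called lower with the GC and length trend removed (log2 change -0.19, adjusted p = 0.0012).

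The tropomyosins, which lie along actin filaments and set which proteins bind them, split. TPM1 stood at 210.1, 235 and 228 RPM in the controls and 296, 331 and 296 RPM in the knockdowns. It rose to 137% of control without overlap (log2 change 0.45, SE 0.06, adjusted p = 0.00011). TPM2 stood at 1041, 930.0 and 1028 RPM and then at 744, 809 and 828 RPM, a fall to 79.4% (log2 change -0.33, SE 0.06, adjusted p = 0.00075). TPM3 (log2 change -0.22, adjusted p = 0.001) and TPM4 (-0.14, adjusted p = 0.013) fell as well. Of all tropomyosin reads, TPM1 took 7.38%, 8.45% and 7.82% in the controls and 11.7%, 12.9% and 11.5% in the knockdowns. TPM2 took 35.1% ± 1.60 and 31.1% ± 1.47 (SD, n = 3), and both shares reached the smallest exact permutation p of 0.1. The table does not separate the muscle and non-muscle splice forms of TPM1, and 42.1% of its 50-base stretches are shared with TPM1-AS, its antisense gene.

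**Figure D3:**
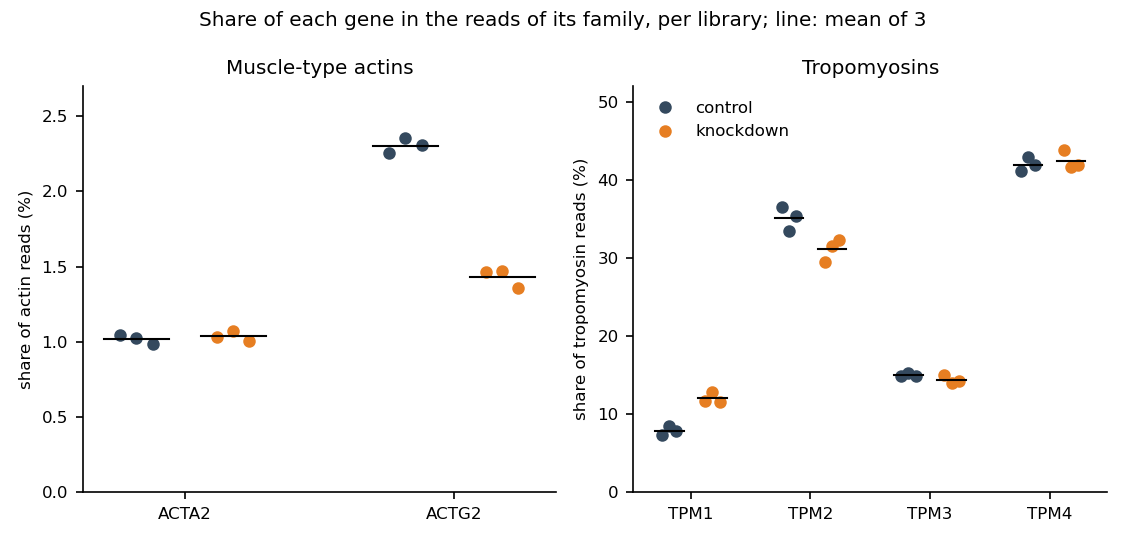
Share of reads (percent) per library of ACTA2 and ACTG2 among the 4 actins (left; ACTB and ACTG1 are left out of the plot) and of TPM1 to TPM4 among the tropomyosins (right). ACTG2 lies at 2.25% to 2.36% in controls and 1.36% to 1.47% in knockdowns, and TPM1 is higher in every knockdown library.

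Actin crosslinkers and adhesion plaque proteins fell in 7 of 8 cases, with a median log2 change of -0.32. VCL (ENSG00000035403.12, chr10:75757872-75879918, hg19), vinculin of focal adhesions, stood at 685, 726 and 690.1 RPM in the controls and 483, 433 and 449 RPM in the knockdowns. It fell to 65.0% of control (log2 change -0.62, SE 0.05, adjusted p = 3.9e-06). ZYX, zyxin, which gathers at adhesions and stress fibres under tension, stood at 380.2, 352 and 373 RPM and then at 257, 277 and 273 RPM (73.0%; log2 change -0.45, SE 0.05, adjusted p = 2.6e-05). The groups lay far apart in both genes. The alpha-actinins ACTN1 (log2 change -0.25) and ACTN4 (-0.32), which bundle actin filaments, and the filamins FLNA (-0.24) and FLNC (-0.32), which join them into networks, fell by similar amounts, with adjusted p-values from 0.00018 to 0.0033. DIAPH3, a formin that elongates actin filaments, was rare, at 5.99, 7.79 and 6.99 RPM in the controls and 4.26, 3.71 and 3.99 RPM in the knockdowns, and fell to 57.6% (log2 change -0.79, SE 0.12, adjusted p = 0.00037). The exception was FSCN1, fascin of filopodia, whose libraries ran from 318 to 437 RPM in the controls and from 299 to 412 RPM in the knockdowns (adjusted p = 0.58). These 7 calls held in each of the 20 alternative settings.

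Of the intermediate filament genes, VIM (vimentin, the filament of mesenchymal cells) stood at 3099.6, 3230.2 and 3262 RPM in the controls and 2504, 2364 and 2424 RPM in the knockdowns. It fell to 76.0% of control (log2 change -0.40, SE 0.04, adjusted p = 4.1e-05), and 38.2% of its 50-base stretches are shared with other genes, VIM-AS1 foremost. DES, desmin of muscle, had 63 reads in all 6 libraries, a mean of 9.85 normalized reads, and was not tested. Its levels were 0.441, 0.233 and 0.417 RPM in the controls and 0.224, 0.213 and 0.356 RPM in the knockdowns. Together the 49 genes held 2.87% ± 0.0296 of a library's reads in the controls and 2.57% ± 0.0548 in the knockdowns (SD, n = 3), without overlap (exact permutation p = 0.1, the smallest possible).

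**Figure D4:**
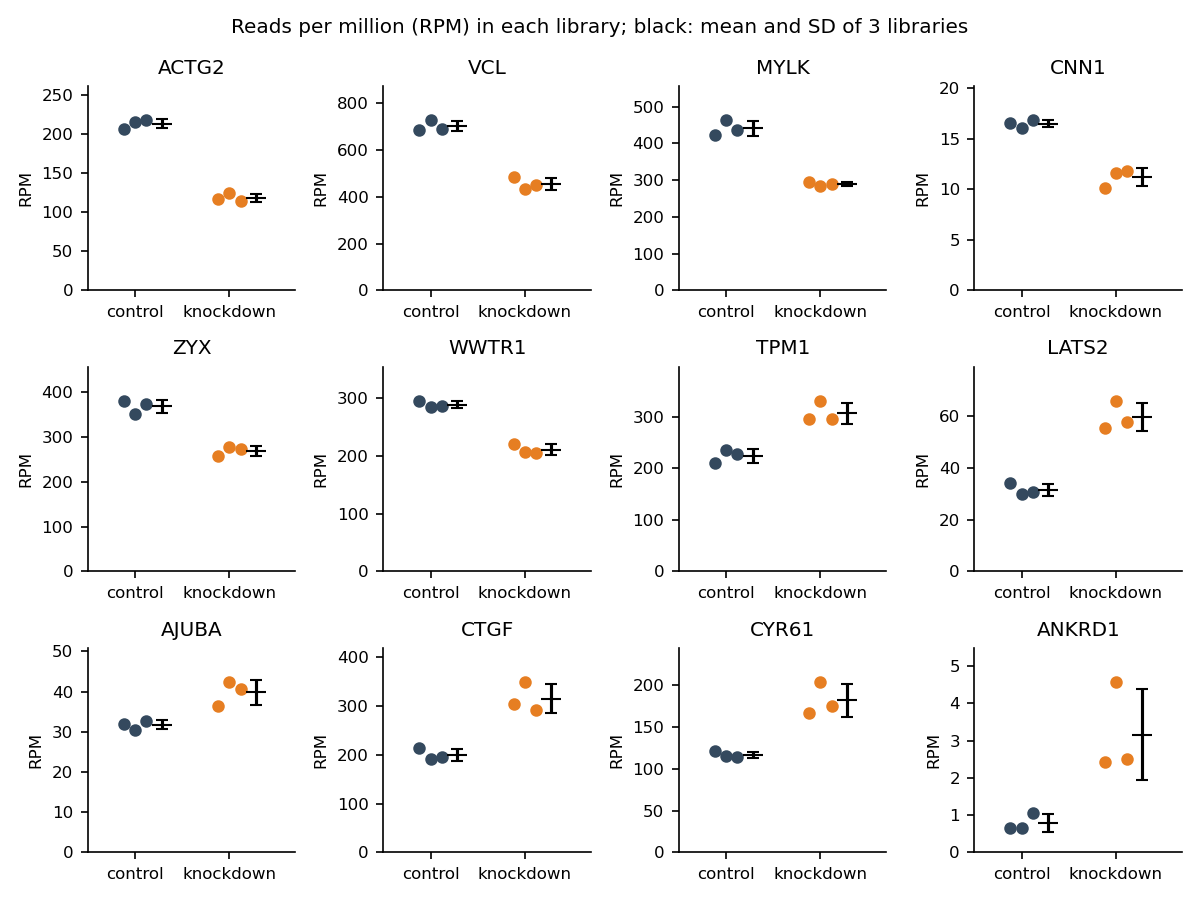
Level (RPM) of selected genes in each of the 6 libraries, with the mean and SD of each group (black). ACTG2, MYLK, VCL and WWTR1 lie lower in every knockdown library, and CTGF, CYR61, LATS2 and ANKRD1 higher.

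SRF fell modestly, and none of its cofactors was called lower. SRF (ENSG00000112658.6, chr6:43139037-43149243, hg19), whose promoter holds both CArG boxes shown above, stood at 93.1, 92.7 and 91.4 RPM in the controls and 77.9, 81.8 and 78.1 RPM in the knockdowns. The groups did not overlap and the mean fell to 85.8% of control (log2 change -0.22, SE 0.04, adjusted p = 0.0021). Its adjusted p was 0.069 with the GC and length trend removed, the only alternative that ended the call. MKL2 stood at 32.2, 35.1 and 31.1 RPM in the controls and 40.8, 35.6 and 39.6 RPM in the knockdowns. It rose to 118% (log2 change 0.24, SE 0.07, adjusted p = 0.017), a call that held in 14 of 20 alternatives. MKL1 stood at 55.7, 51.8 and 57.1 RPM and then at 56.3, 63.0 and 62.7 RPM, with overlap (log2 change 0.14, SE 0.06, adjusted p = 0.076). MKL1 was called higher with the GC and length trend removed (log2 change 0.29, adjusted p = 0.00027). MYOCD was rare, at 4.67 ± 0.162 and 5.15 ± 0.382 RPM (SD, n = 3; adjusted p = 0.3).

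The coactivators YAP1 and WWTR1 moved in opposite directions, with a small rise of YAP1 that was not called in every setting. WWTR1 (TAZ; ENSG00000018408.10, chr3:149235022-149454501, hg19) stood at 294, 283 and 287 RPM in the controls and 221, 206 and 204 RPM in the knockdowns. It fell to 73.0% of control without overlap (log2 change -0.46, SE 0.04, adjusted p = 1.7e-05). YAP1 (ENSG00000137693.9, chr11:101981192-102104154, hg19) stood at 249, 247 and 249 RPM and then at 284, 271 and 266 RPM. It rose to 110.1% (log2 change 0.14, SE 0.04, adjusted p = 0.019), a call that held in 15 of 20 alternatives. With the GC and length trend removed, the log2 change of YAP1 was 0.07 (adjusted p = 0.15). For each YAP1 read there were 1.18, 1.15 and 1.15 WWTR1 reads in the controls and 0.777, 0.762 and 0.767 in the knockdowns. That ratio was chosen after its values were seen, and its exact permutation p was the smallest possible, 0.1. Of the TEAD factors, which bring both coactivators to DNA, TEAD3 fell (log2 change -0.21, adjusted p = 0.013), with an adjusted p of 0.11 once the GC and length trend was removed. TEAD1 (-0.06, adjusted p = 0.33), TEAD2 (0.11, adjusted p = 0.13) and TEAD4 (0.24, adjusted p = 0.16) did not pass the test. With that trend removed, TEAD1 was called lower (log2 change -0.18, adjusted p = 0.0014). In the same setting TEAD2 (0.22, adjusted p = 0.00073) and TEAD4 (0.40, adjusted p = 0.01) were called higher.

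The LATS kinases and the proteins that bind LATS or YAP rose in 4 of 5 cases, with a median log2 change of 0.32. LATS2 (ENSG00000150457.7, chr13:21547171-21635686, hg19) stood at 34.2, 29.8 and 30.6 RPM in the controls and 55.4, 65.9 and 57.8 RPM in the knockdowns. It rose to 189% of control, with a wide gap between the groups (log2 change 0.92, SE 0.07, adjusted p = 5.4e-06). LATS1 stood at 40.0, 36.6 and 37.5 RPM and then at 50.1, 46.5 and 46.3 RPM (125%; log2 change 0.32, SE 0.06, adjusted p = 0.00099). LATS2 is also known as a gene that YAP itself induces. AJUBA, a LIM protein that binds and restrains LATS kinases, stood at 32.0, 30.5 and 32.7 RPM and then at 36.4, 42.3 and 40.6 RPM (125%; log2 change 0.32, SE 0.07, adjusted p = 0.0023). AMOTL1, an angiomotin that holds YAP at junctions and actin, rose by a log2 change of 0.16 (adjusted p = 0.014), and 0.08 (adjusted p = 0.097) with the GC and length trend removed. AMOTL2 was at 63.1 ± 3.05 and 57.9 ± 5.00 RPM (SD, n = 3; adjusted p = 0.15).

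The secreted and nuclear target genes of YAP/TEAD and SRF rose in 3 of 4 cases, with a median log2 change of 0.64. CTGF (ENSG00000118523.5, chr6:132269316-132272513, hg19), a matricellular protein and a common readout of YAP, stood at 214, 192 and 195 RPM in the controls and 305, 349 and 292 RPM in the knockdowns. It rose to 157% of control (log2 change 0.65, SE 0.07, adjusted p = 2.7e-05). CYR61 (ENSG00000142871.11, chr1:86046444-86049645, hg19), its close relative, stood at 121, 116 and 114 RPM and then at 167, 204 and 175 RPM, a rise to 156% (log2 change 0.63, SE 0.07, adjusted p = 3.3e-05). The groups lay apart in both genes, and their changes were alike in size. ANKRD1 (ENSG00000148677.6, chr10:92671853-92681033, hg19), a nuclear ankyrin repeat protein of stressed muscle, stood at 0.646, 0.666 and 1.05 RPM in the controls and 2.42, 4.57 and 2.49 RPM in the knockdowns. It rose to 401% of control (log2 change 1.96, SE 0.27, adjusted p = 0.00022), the only one of the 48 genes with an absolute log2 change of at least 1, and it rests on 22, 20 and 53 control reads. NOV, the remaining relative of CTGF, was at 8.17 ± 0.56 and 8.38 ± 0.389 RPM (SD, n = 3; adjusted p = 0.76), with overlap. Knockdown replicate 2 was the highest library for CTGF, CYR61, ANKRD1, LATS2 and TPM1. Without it the log2 changes were 0.58, 0.55, 1.66, 0.84 and 0.40, respectively, and each was still called.

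The other genes of these pathways split between directions. Of 135 further genes in 5 lists, 133 were tested, 41 rose and 46 fell, with a median log2 change of -0.02. That is 65.4% called, beside 41.0% of all genes tested and 57.6% of those with a mean of at least 1000 reads. Of 24 Hippo genes, 7 rose and 5 fell, a share near that of all genes. FAT4 and FAT1, giant cadherins that act upstream of the kinases, rose by log2 changes of 0.52 and 0.44, and SAV1, the scaffold of the core kinases, changed by -0.34. VGLL3, which binds TEAD factors, rose by 0.32, while LIMD1, a LIM protein related to AJUBA, changed by -0.35 and MAP4K4, a kinase that can activate LATS, by -0.26. Of 20 further YAP/TEAD targets, 9 rose and 3 fell (60% called). TGFB2, a ligand of the TGF-beta receptors that drive myofibroblasts, rose from 13.3 ± 0.308 to 29.6 ± 0.169 RPM (SD, n = 3; log2 change 1.16, adjusted p = 2.1e-07), and the matrix protein CCDC80 rose by 0.79. Against this, TGM2, a transglutaminase that crosslinks matrix, went from 994 ± 35.1 to 537 ± 12.8 RPM (log2 change -0.89, adjusted p = 1.4e-07), and ARHGAP29, a GTPase-activating protein, changed by -0.92. AXL, a receptor tyrosine kinase, changed by -0.33, and NUAK2, a kinase that acts on myosin phosphatase, rose by 0.64.

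Of 37 further contractile and SRF/MRTF target genes tested, 10 rose and 16 fell. That is 70.3% called, beside 41.0% of all genes tested and 57.6% of those with a mean of at least 1000 reads. CSRP1, a LIM protein of smooth muscle, went from 422 ± 4.82 to 274 ± 2.65 RPM (SD, n = 3; log2 change -0.62, adjusted p = 6.5e-07), and SMTN, smoothelin of contractile smooth muscle, changed by -0.73. PALLD, palladin of stress fibres, rose from 230.3 ± 3.31 to 377 ± 12.2 RPM (log2 change 0.71, adjusted p = 5.3e-07). CSRP2, a relative of CSRP1, rose by 0.82, and MYPN, a relative of palladin, changed by -0.96 from a level of 2.52 RPM. Of 23 focal adhesion plaque genes, 7 rose and 10 fell (73.9% called, beside the same shares). CAV1, caveolin of membrane pits, changed by -0.69 and the kinase SRC by -0.50, while the docking protein NEDD9 rose by 0.98 and LIMS1, a partner of integrin-linked kinase, by 0.50. TES, a LIM protein of adhesions, rose by 0.54, and LIMS2, the relative of LIMS1, changed by -0.46. The genes named from these lists are among the 3 largest called rises and the 3 largest called falls of each list with a mean of at least 50 reads, with adjusted p-values from 1.4e-07 to 0.012, and none lost its call in the 20 alternative settings that keep the call rule.

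**Figure D5:**
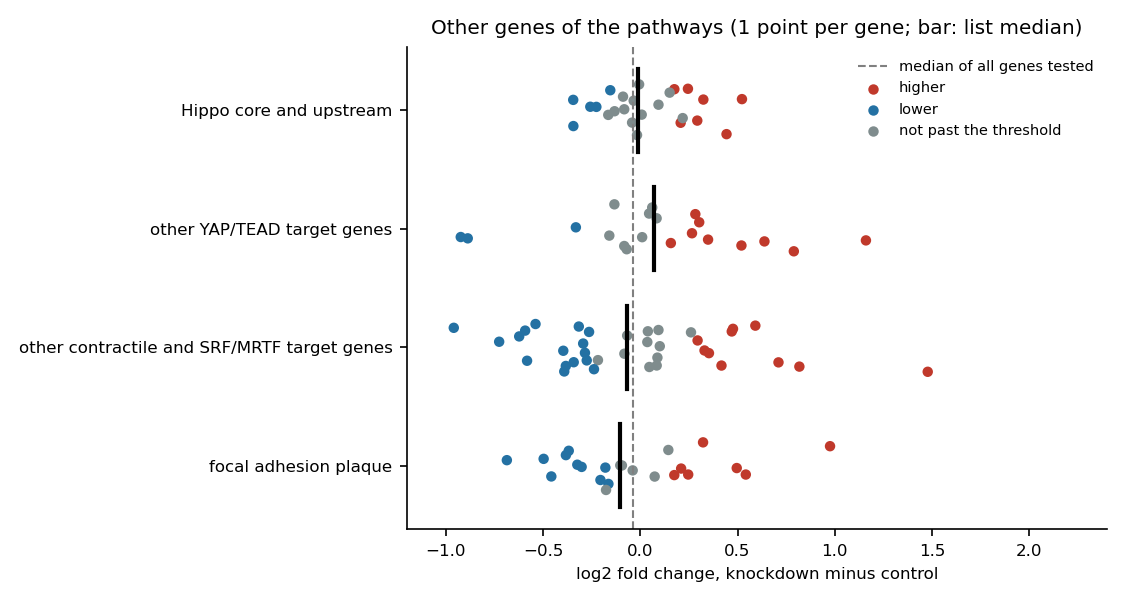
Log2 change (knockdown minus control) of each gene tested in 4 lists of further pathway genes, 1 point per gene, coloured by whether it was called higher, called lower or did not pass the test, with the list median as a bar and the median of all genes tested (-0.04) as a dashed line. Called genes lie on both sides of 0 in each of the 4 lists, and the list medians lie between -0.10 and 0.07.

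Across the 48 genes tested, the log2 change showed little relation to transcript length (Pearson r = -0.04, Spearman coefficient 0.05) and a weak one to GC content (both coefficients -0.22). These are descriptions over genes that share the same 6 libraries. In all, 34 of the 49 genes overlap another gene in the table, and 9 of the 49 have at least 10% of the 50-base stretches of their transcripts in another gene.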

How the data were processed

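PolyA RNA of 3 control and 3 knockdown libraries was sequenced as single 50 bp reads, per the labels' protocols. Bowtie2, featureCounts and the build hg19 are named in the submitters' processing notes, while versions and the strand setting are not given in the sources used here. The authors deposited log2 values for 57819 genes, although the table is named for normalized counts. With the 0.5-read offset and the scaling to library size undone, 100% of the deposited log2 values came out as whole reads (within 0.01 reads), and reads, RPM and shares were computed from these.

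Log2 values were fitted with limma 3.58.1 (R 4.3.3; lmFit, eBayes with an intensity trend, group as the sole term, two-sided), for 19048 genes with a mean of at least 10 normalized reads, with Benjamini-Hochberg adjustment over all of them and calls at 0.05. Fold changes carry that offset on the log2 scale, so changes of rare genes are understated. Shares were compared by exact permutation over libraries. RPKM used GENCODE 29 transcript lengths. On simulated data of this comparison with 19048 genes and 200 changed, 56% of genes changed by a log2 of 0.5 and 93% of those changed by 1 were recovered in the right direction, while unchanged genes made up 5.70% of the calls. The simulation gave all genes the same dispersion, and far more genes (41.0%) were called in the measured data. These rates therefore need not hold for the measured comparison.

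The genes and lists were chosen with earlier results of these data known. All 49 genes are accounted for by role, and each pathway list is represented by its 3 largest called rises and falls with a mean of at least 50 reads. Results of 1 further list and 1 further gene are not reported here, though counts over all lists include them. Alternatives varied the offset, filter, scaling, test, depth, threshold, replicate block and libraries, and a GC and length correction and the addition of actin pseudogene reads were chosen after seeing the data. Replicates differed by more than sampling noise (chi-square per degree of freedom 2.87 to 11.0), so each library counted once.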

Additional observations from a re-analysis of the deposited data

How the results depend on the processing

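Of the 37 calls among the 48 genes, 24 held in each of the 20 alternatives that keep the call rule, and 13 were lost in at least 1: MKL2, YAP1 and AMOTL1 among the rises, and ACTA2, ACTB, ACTG1, TAGLN, MYL9, LMOD1, CNN3, TPM4, SRF and TEAD3 among the falls. Of the 11 genes tested and not called, 6 were called in at least 1 alternative. The cause of these changes in call was not tested. The count of the 48 genes called was 26 at an adjusted p under 0.01, 1 with an absolute log2 change of at least 1, 25 with eBayes without trend (17 lower) and 26 to 36 with a library left out. For pathway genes it was 2 with an absolute log2 change of at least 1. Over all genes, 5195 were called at an adjusted p under 0.01 and 561 with an absolute log2 change of at least 1, and 5803 (without control replicate 3) to 7330 with a library left out. Same-numbered libraries did not deviate together (correlations -0.15, -0.18 and 0.07). With 3 libraries a group, this cannot tell whether libraries of the same number were prepared together. With a replicate block, 28 of the 48 genes, 76 pathway genes and 6454 genes in all were called. Changes of sign were confined to values that were not called. On the log2 scale, TAGLN2 was at 0.0774 and FSCN1 at 0.0828 with the GC and length trend removed. MYH9 was at 0.0145 with library totals, 0.0131 with trimmed-mean scaling, 0.0837 with quantile normalization and 0.0311 with the GC and length trend removed. With a library left out, MYH9 ran from -0.0278 to 0.0197, FSCN1 from -0.233 to 0.0388 and NOV from -0.0198 to 0.0762, the difference in actin share of ACTB from -0.0399 to 0.554 percentage points, and that in tropomyosin share of TPM4 from -0.202 to 0.927. Few reads limit the precision of DES and ANKRD1.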
